A study of Drosophila melanogaster with 12 samples.

Results

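The gap genes and caudal set up the head-to-tail axis of the Drosophila embryo. This account follows Polycomb over 6 of them in 3 larval profiles, through 5 stretches of the genome fixed by position (dm3 coordinates, counted from 1): hunchback (hb) on 3R from 4490001 to 4540000, giant (gt) on X from 2300001 to 2345000, knirps and knirps-like (kni and knrl) on 3L from 20600001 to 20720000, tailless (tll) on 3R from 26650001 to 26700000, and caudal (cad) on 2L from 20740001 to 20800000. They hold 1185 of the 356504 GATC fragments of the deposited table. Fragments were taken by their start, whatever their score. Of these, 465 of the 122591 fragments scored in brain, 352 of the 152409 scored in fat body and 695 of the 196103 scored in glia lay in the 5 intervals.

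Hunchback is a zinc-finger transcription factor, laid down by the mother and later made in broad bands of the embryo, and it is also the first factor in the temporal series of embryonic neuroblasts. Giant is a basic leucine zipper repressor, Knirps and Knirps-like carry the zinc fingers of nuclear receptors, and Tailless is an orphan nuclear receptor of the embryo's ends that is used again in brain stem cells. Caudal is a homeodomain activator of posterior fate that stays in use in the hindgut and genital region. Polycomb is the chromodomain subunit of a repressive complex that binds histone H3 methylated by a partner complex and keeps such regulators silent once the early embryonic signals have gone, usually over domains much longer than a gene.

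The profiles were made by DamID: Dam, a methylase from bacteria that marks adenine in GATC, is fused to Polycomb and leaves its mark close to where Polycomb sits, and unfused Dam gives the background. For each of brain, fat body and glia there were 2 biological replicates with the Polycomb fusion and 2 with unfused Dam, 12 libraries in all, and each unfused Dam replicate of brain was run as 3 technical replicates. All came from wandering larvae of the last instar, raised at 25 °C, with the animals of a sample pooled. Brain samples were central brains without the ventral nerve cord, from 20 males each. These males were y,w and carried at the ZH51C site an hsp70P transgene (vector M{FL}) that encodes Dam interrupted by the 4-HT-intein@L127C, with PC fused to it in the Dam-Polycomb group and without PC in the Dam only group. This intein leaves the protein when 4-hydroxytamoxifen is given, and in brain it was left uninduced. Fat body samples, the larval storage and metabolic tissue, came from 10 males each with the same constructs, raised on food with 25 µM 4-hydroxytamoxifen. Glial samples used DamFLP, in central brains of 20 larvae each, males and females pooled. These larvae were y,w/w and carried repoFlp5 over a transgene with a minimal promoter (M{min.hsp70P}) at ZH51C, in which STOP#1 stands before Dam-PC or before Dam, so that Dam is made where the recombinase driven by the glial gene repo has acted. In every pair of profiles, tissue changed together with induction, DamID system or sex, and these cannot be told apart. The labelled tissues could not be checked against marker genes, because the table holds binding scores by position.

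The deposited value is the log2 ratio of fused to unfused Dam at each fragment, 1 per profile, already averaged over replicates by the authors. No value per animal or read depth was analysed here, so every SD given is the spread between fragments, and no test between tissues was possible. The brain profile is a mean over many cell types, so fewer cells with Polycomb at a locus and less Polycomb per cell cannot be told apart. Scores are given as centred scores, the deposited score minus the median of its profile (-1.24 for brain, 0.09 for fat body and -0.60 for glia). A bin is a window of 5 kb with at least 3 scored fragments, and it is called enriched where its centred mean is over 2. An enriched stretch is a run of at least 5 scored fragments whose running median over 5 is over 2.

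Brain Polycomb covered part of all 5 intervals, while fat body and glia each covered some of them. In brain 34 of 60 bins were enriched, where the share over the genome was 15.1% of 19119 bins. In fat body it was 5 of 54 bins, against 11.6% of 20153 bins, and all 5 were at cad. In glia it was 25 of 62 bins, against 9.76% of 22094 bins, with 17 at kni and knrl, 6 at cad, 2 at tll and none at hb or gt. The fat body share over all 5 intervals was thus close to its genome share, and the brain and glial shares were above theirs.

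**Figure D1:**
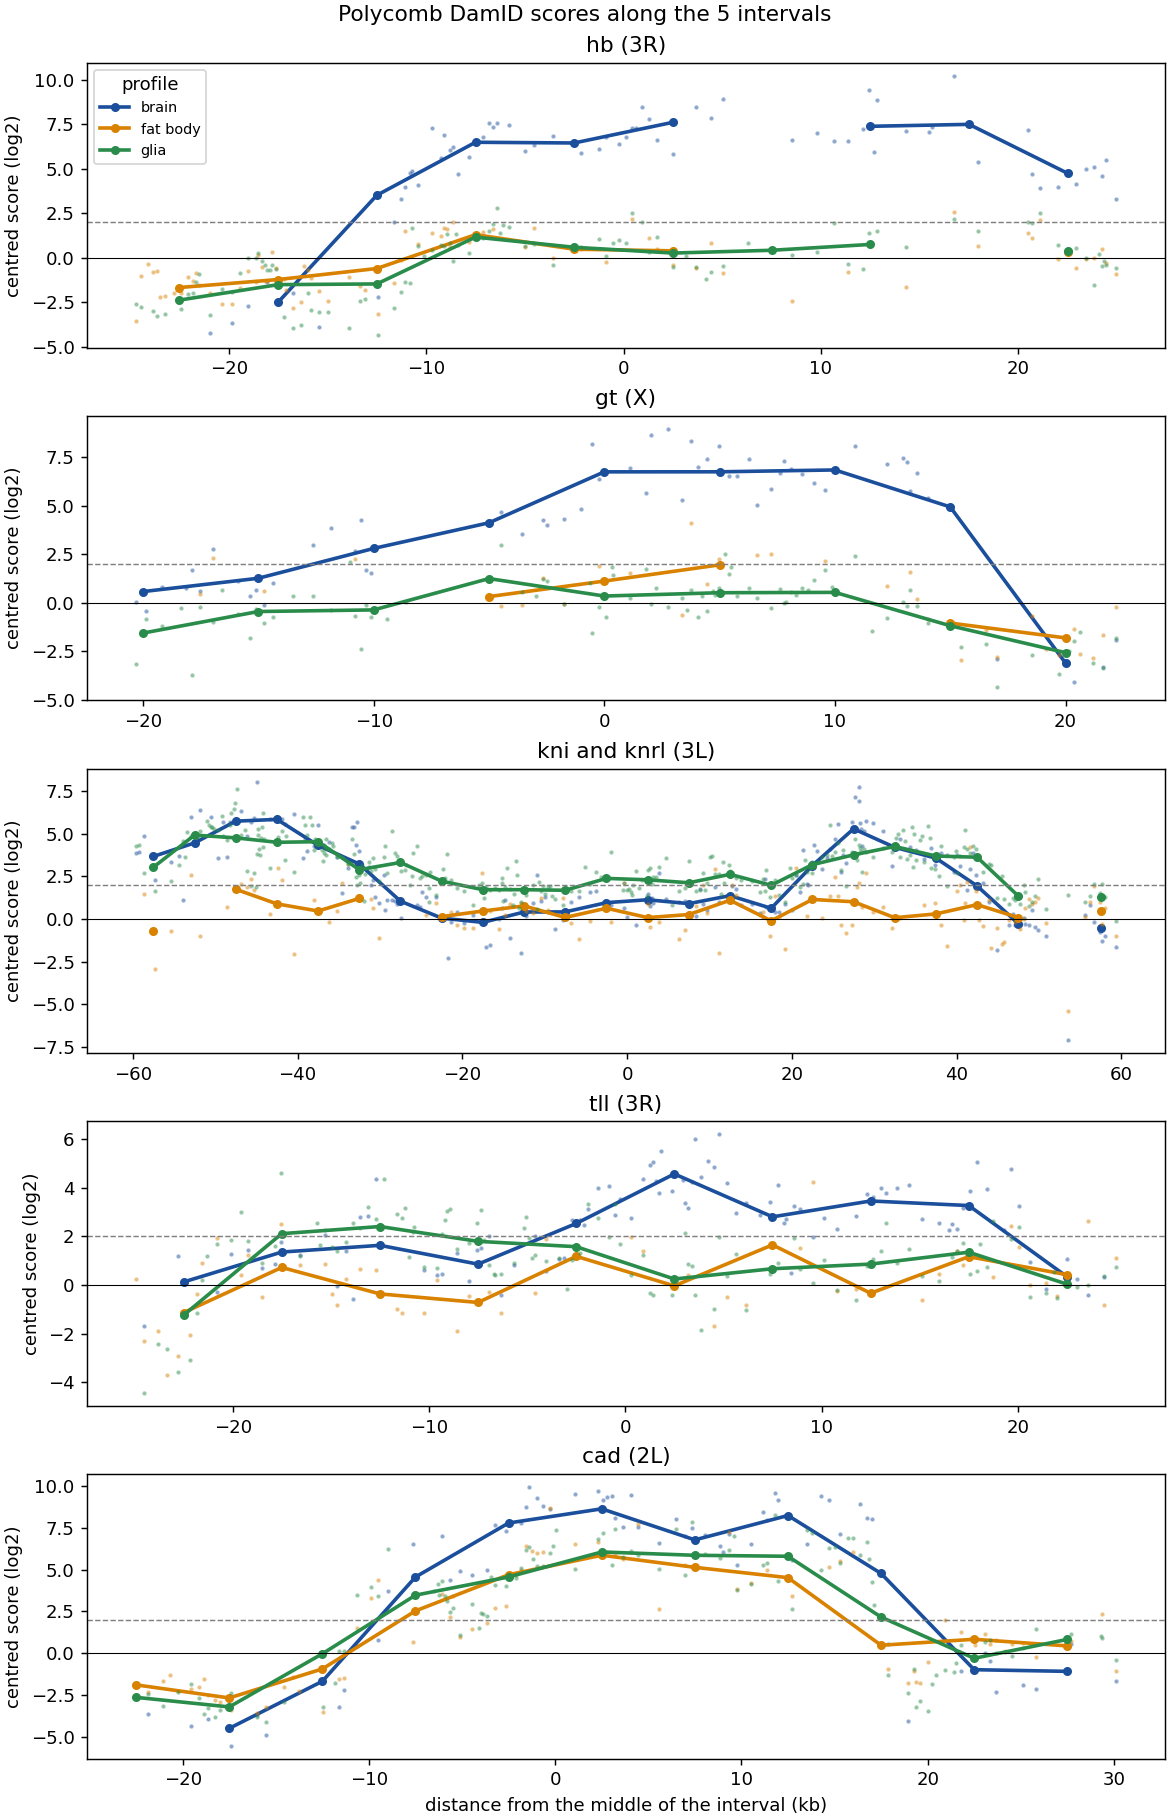
Centred Polycomb DamID score (log2, vertical axis) against distance from the middle of each interval (kb, horizontal axis). Dots are single scored fragments, joined circles are means of 5-kb bins with at least 3 scored fragments, the dashed line marks 2 and colours mark brain, fat body and glia. Brain is high at hb and gt, where the bin means of fat body and glia stay under 2. Glia follows brain at kni and knrl, the highest bins of brain and glia lie apart at tll, and the 3 profiles rise together at cad.

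At hb, Polycomb was strong in brain and near the genome median in fat body and glia. The mean centred score was 5.31 for brain (SD 3.26, 65 fragments), -0.45 for fat body (SD 1.43, 78 fragments) and -0.33 for glia (SD 1.72, 99 fragments). As deposited, before centring, the means were 4.07 for brain, -0.36 for fat body and -0.93 for glia. Over the fragments scored in both profiles of a pair, brain was higher than fat body by 4.54 (SD 2.87, 46 fragments) and higher than glia by 5.00 (SD 2.53, 61 fragments). Brain was the higher one in 41 of 46 fragments against fat body (40.2% over all shared fragments of the genome) and in 56 of 61 against glia (49.0% over the genome). Fat body minus glia was 0.35 (SD 1.10, 73 fragments) and 1.04 as deposited. Under quantile normalization, which gives the profiles 1 common distribution and keeps only fragments scored in all 3, it was -0.20 (46 fragments). Over the same 46 fragments the centred difference was 0.19, so its direction depended on the scale.

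A single brain stretch of 37.2 kb, from 4503168 to 4540341, made up this signal, with a mean of 6.29 (SD 1.61, 58 fragments). It ranked 42 by mean among the 513 brain stretches of the genome. Over its part inside the interval, fat body averaged 0.51 and glia 0.56. There 4 of 40 fat body fragments and 6 of 65 glial fragments scored over 2, shares below those over the genome, 15.9% for fat body and 14.0% for glia. Below the stretch lay 7 of the 65 brain scores, 38 of the 78 fat body scores and 34 of the 99 glial scores. The means over the whole interval thus weight its parts differently in each profile. The highest brain bin, from 4515001 to 4520000, had 7.62 for brain (SD 0.98, 9 fragments), 0.40 for fat body (7 fragments) and 0.28 for glia (10 fragments). That bin was above 99.3% of brain bins, and its gaps to fat body (7.22) and glia (7.34) were the widest of the locus. A single fragment from 4530753 to 4532740 carried the highest brain score, 10.2, with 2.57 in fat body and 2.19 in glia. It was thus also the highest fat body fragment of the interval.

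The lower edge of the hb stretch was steep. The bin from 4495001 to 4500000 had -2.49 for brain (4 fragments), -1.21 for fat body (18 fragments) and -1.50 for glia (17 fragments). The next bin, from 4500001, had 3.52 for brain, -0.59 for fat body and -1.46 for glia. The brain stretch begins inside this bin, at 4503168. The bin means thus mix fragments from both sides of that edge, in shares that differ between the profiles. In the bin 5 kb further on brain reached 6.50, fat body 1.31 and glia 1.17. All 3 profiles thus climbed in the same direction, and fat body and glia reached their own highest bin of the locus there while staying under 2. In the RefSeq gene table, which is of release 6 and was used for gene order alone, hb lies between CG44227 and Cks85A, a cyclin-dependent kinase subunit. No gene was placed within an interval, because positions were not carried between builds.

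At gt, too, brain had the highest mean, while a few fat body fragments scored high. The mean centred score was 4.21 for brain (SD 3.32, 57 fragments), 0.13 for fat body (SD 1.92, 32 fragments) and -0.24 for glia (SD 1.48, 85 fragments). Brain was higher than glia by 4.53 (SD 2.72) over 55 shared fragments, in 53 of them (49.0% over the genome). Brain was higher than fat body by 3.01 (SD 2.89) over 25 shared fragments, in 20 of them (40.2% over the genome), and by 1.68 as deposited. The fat body values at gt rest on few fragments: 15.5% of the 207 fragments had a fat body score, against 42.8% over the genome, and their part in the result was not tested. The locus is on X, and brain and fat body came from males while glia came from both sexes.

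The brain stretch at gt ran 27.2 kb, from 2309622 to 2336855, with a mean of 5.92 (SD 1.85, 41 fragments). Over it, fat body averaged 1.24 (SD 1.32, 18 fragments) and glia 0.38 (SD 1.02, 60 fragments). Of these, 6 of 18 fat body fragments and 4 of 60 glial fragments scored over 2, where the genome had 15.9% and 14.0%, so the fat body share was above its genome share and the glial share below. Neighbouring brain bins formed a plateau, at 6.76 from 2320001, 6.76 from 2325001 and 6.85 from 2330001, where glia had 0.35, 0.53 and 0.54. Fat body had a short stretch inside the brain stretch, from 2326778 to 2332314, of 5 scored fragments with a mean of 2.09, which ranked 1160 of 1248 fat body stretches by mean. It was lost with a running median of 9 fragments and with a threshold of 3. The highest fat body fragment, from 2326084 to 2326438, had 8.35 for brain, 4.10 for fat body and 0.64 for glia.

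The ends of the gt interval differed in shape. On the low side, brain rose in steps, from 0.58 in the bin from 2300001 through 1.27, 2.81 and 4.13 to the plateau. Glia also rose over those bins, from -1.56 through -0.44 and -0.36 to 1.25, its highest bin of the locus. On the high side brain ended within 2 bins. Brain had 4.95 from 2335001 (SD 3.93, 6 fragments), where fat body had -1.04 (SD 1.75, 6 fragments) and glia -1.18 (SD 1.66, 8 fragments). The brain stretch ends inside this bin, at 2336855. Its means mix fragments from both sides of that edge, in shares that differ between the profiles. From 2340001 brain had -3.10, fat body -1.80 and glia -2.56. In the last bin the 3 profiles were thus low together. In the gene table gt lies between CG32797 and tko, which encodes a mitochondrial ribosomal protein.

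**Figure D2:**
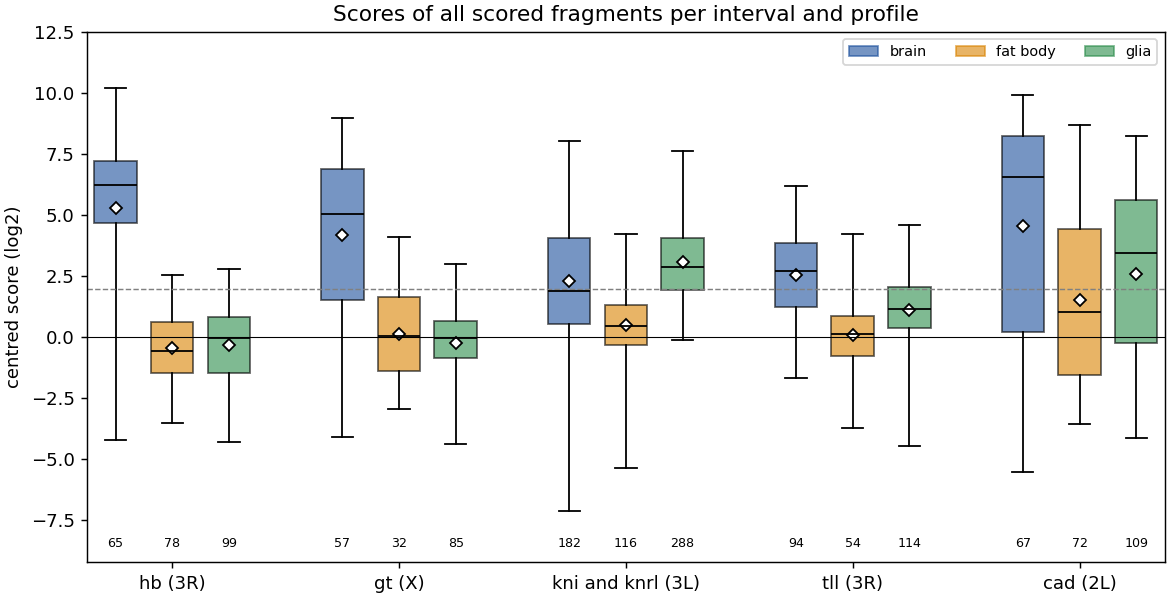
Centred score (log2, vertical axis) of all scored fragments of each interval by profile. Boxes span the quartiles with the median as a line, whiskers reach the lowest and highest fragment, diamonds are means, the dashed line marks 2 and the numbers below are scored fragments. The boxes of brain at hb lie above those of fat body and glia, and at kni and knrl the glial median of 2.89 lies above the brain median of 1.89.

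The kni and knrl interval was enriched in brain and glia, and no fat body bin there passed 2. The mean centred score was 2.31 for brain (SD 2.39, 182 fragments), 0.51 for fat body (SD 1.38, 116 fragments) and 3.07 for glia (SD 1.40, 288 fragments). Its glial mean was above that of cad, 2.59, and its glial median of 2.89 below that of cad, 3.47. Fat body was lower than glia in all but 8 of 116 shared fragments, with a mean difference of -2.08 (SD 1.48). Over all shared fragments of the genome fat body was the higher one in 62.2%. Brain exceeded fat body by 1.34 (SD 2.31, 110 fragments), a gap that was 0.01 with the scores as deposited. Brain was below glia by 0.55 on average (a difference of -0.55, SD 1.76, 180 fragments), less than the spread along the locus. The difference was -1.19 as deposited. Over the 110 fragments scored in all 3 profiles it was -0.64 centred and -1.42 under quantile normalization. Of the fragments here, 28.0% had a fat body score and 69.6% a glial score, against 42.8% and 55.0% over the genome, and the part of this in the result was not tested.

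Brain Polycomb at this interval lay in 2 peaks with a low stretch of 51.7 kb between them. The first stretch, from 20595464 to 20629101, begins before the interval and had a mean of 4.39 for brain (SD 1.52, 49 fragments), 0.98 for fat body (23 fragments) and 4.14 for glia (SD 1.33, 86 fragments). The second, from 20680813 to 20703746, had a mean of 4.06 for brain (SD 1.40, 45 fragments), 0.82 for fat body (29 fragments) and 3.77 for glia (SD 0.87, 64 fragments). Brain and glia thus differed in both peaks by less than their spread along them. Between the peaks brain averaged 0.74 (SD 0.99, 73 fragments), fat body 0.40 (SD 1.15, 44 fragments) and glia 2.26 (SD 0.86, 121 fragments). There 6 of 73 brain fragments, 5 of 44 fat body fragments and 68 of 121 glial fragments scored over 2, against genome shares of 20.7% for brain, 15.9% for fat body and 14.0% for glia. This part was taken as what lies between the brain stretches, so its low brain share was set by that choice. The lead of glia over brain there depends on the same choice.

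Between the brain peaks glia was above its median in every bin but enriched in only some, with bin means of 1.72, 1.72 and 1.68 from 20640001, 20645001 and 20650001 and 1.97 from 20675001, and its stretches there were short and separate. Glial stretches covered 81.3 kb of the 120 kb, brain stretches covered 52.0 kb, and the whole of the brain cover lay inside the glial cover. The lowest glial bin with enough fragments, from 20715001, still had 1.31 and lay above 83.8% of glial bins, whereas brain there had -0.55 and fat body 0.49. The lowest brain minus glia value, -2.27, fell just past the first peak, in the bin from 20630001, with 1.04 for brain (10 fragments) and 3.31 for glia (15 fragments). The highest brain minus glia value, 1.53, was on the second peak, from 20685001, with 5.28 for brain (SD 1.34, 16 fragments), 1.01 for fat body (SD 1.27, 10 fragments) and 3.76 for glia (SD 0.70, 16 fragments).

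The highest brain bin of the interval, from 20615001, had 5.83 for brain, 0.89 for fat body and 4.49 for glia. The highest glial bin, from 20605001, had 4.46 in brain and 4.91 in glia and lay above 98.2% of glial bins. The highest fat body bin, from 20610001, reached 1.74 (5 fragments), where brain had 5.73 and glia 4.75. No fat body bin of the 21 measured here was enriched, against 11.6% over the genome. The gene table lists knrl before kni along 3L with 1 protein-coding gene, CG13251, between them. Which peak covers which gene was not determined.

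At tll, brain was moderately enriched, glia less so and fat body near its median. The mean centred score was 2.56 for brain (SD 1.66, 94 fragments), 0.10 for fat body (SD 1.47, 54 fragments) and 1.11 for glia (SD 1.51, 114 fragments). Brain exceeded fat body by 1.57 (SD 1.93, 41 fragments) and glia by 1.48 (SD 2.09, 81 fragments). Neither difference was larger than its spread along the locus. Brain was the higher one in 35 of 41 fragments against fat body (40.2% over the genome) and in 55 of 81 against glia (49.0% over the genome). Fat body minus glia was -0.52 (SD 1.55, 53 fragments) and 0.17 as deposited. As deposited, brain exceeded fat body by 0.25 and glia by 0.84, and under quantile normalization by 1.63 and 0.84.

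The enriched stretches of brain and glia lay in different parts of the tll interval. The brain stretch, from 26672066 to 26695265 (23.2 kb), had a mean of 3.56 for brain (SD 1.06, 58 fragments), 0.71 for fat body (18 fragments) and 0.97 for glia (SD 1.13, 48 fragments). It ranked 256 of 513 brain stretches by mean. Below it, from 26650001 to 26672065, brain averaged 1.08 (SD 1.16, 30 fragments), fat body -0.33 (SD 1.45, 30 fragments) and glia 1.39 (SD 1.80, 57 fragments). The glial stretches were short and lay there, from 26661071 to 26664228 with a glial mean of 2.74 (10 fragments) and from 26664286 to 26667392 with 1.95 (8 fragments). In the first of these brain averaged 2.36 (SD 2.08, 4 fragments), so few brain scores there were high too. In the second brain averaged 0.59 (SD 0.44, 5 fragments). By the running median, no base of the interval was in a stretch of both brain and glia. With the 2-state hidden Markov model, whose upper state held 57.4% of all glial scores, the glial stretch was 52.3 kb long and held 94.7% of the scored glial fragments.

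Single bins differed in which of brain and glia was higher. The bin from 26660001 had 1.63 for brain (7 fragments), -0.37 for fat body (7 fragments) and 2.40 for glia (14 fragments). The bin from 26675001 had 4.57 for brain (17 fragments), -0.04 for fat body (5 fragments) and 0.25 for glia (12 fragments). Brain minus glia was thus -0.77 in the one and 4.32 in the other. Glia was over 1 above brain in none of the 10 bins once centred (genome 30.4%) and in 3 of them as deposited (genome 45.8%). At a threshold of 3 no glial stretch remained at tll, and the brain signal broke into 3 stretches. In the gene table tll lies between CG15544 and the cuticle protein gene Cpr100A.

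**Figure D3:**
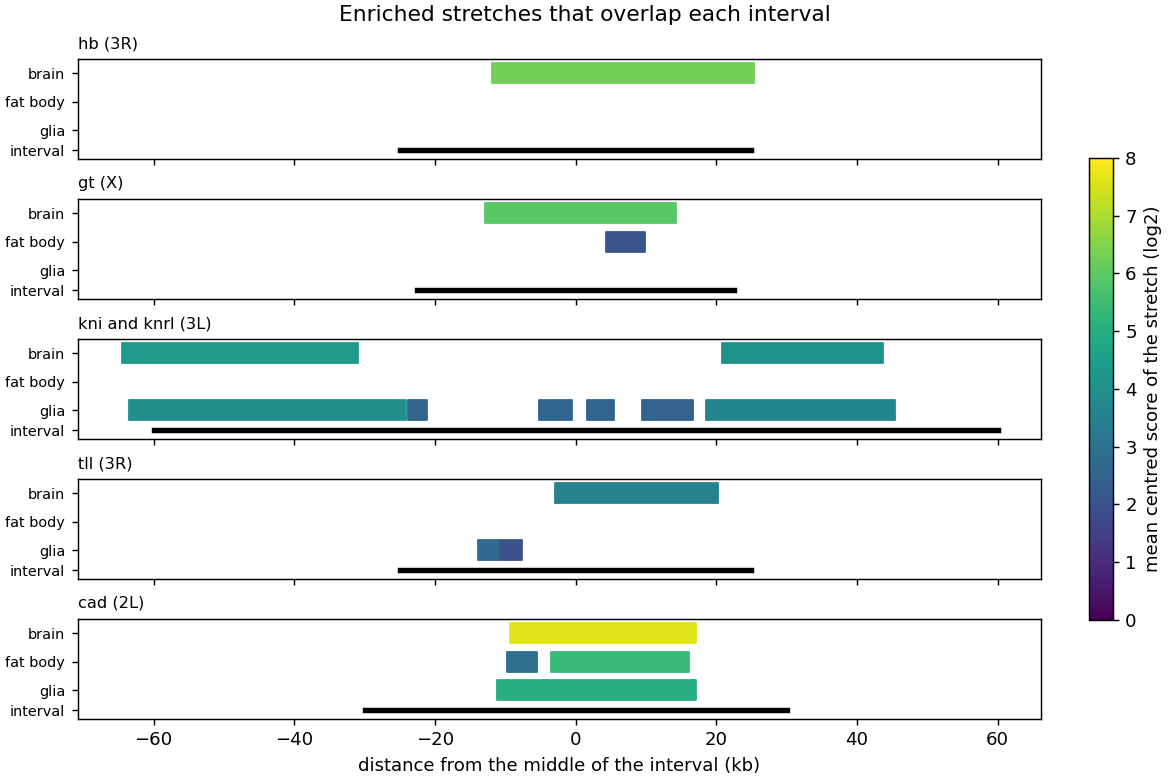
Enriched stretches of brain, fat body and glia (rows) that overlap each interval, against distance from the middle of the interval (kb, horizontal axis), coloured by the mean centred score of the stretch (log2), with the interval as a black bar. Every interval has a brain stretch, fat body stretches appear at gt and cad, glial stretches appear at kni and knrl, tll and cad, and only at cad do those of the 3 profiles cover the same ground for over 20 kb.

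At cad, Polycomb was strong in all 3 profiles. The mean over the whole interval, which includes low ends, was 4.57 for brain (SD 4.82, 67 fragments), 1.53 for fat body (SD 3.33, 72 fragments) and 2.59 for glia (SD 3.54, 109 fragments). The brain stretch, from 20760746 to 20787083, had means of 7.60 for brain (SD 1.60, 46 fragments), 4.62 for fat body (SD 2.04, 31 fragments) and 5.10 for glia (SD 1.67, 64 fragments). The longer fat body stretch, from 20766562 to 20786090, had a fat body mean of 5.38 (SD 1.56, 24 fragments), and the glial stretch, from 20758800 to 20787165, a glial mean of 5.01 (SD 1.67, 68 fragments). By mean score they ranked 2 of 513 stretches in brain, 5 of 1248 in fat body and 10 of 759 in glia.

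The peaks of the 3 profiles at cad coincided. The bin from 20770001 to 20775000 was the highest of the interval in each, with 8.62 for brain (SD 1.09, 10 fragments), 5.85 for fat body (SD 1.73, 6 fragments) and 6.05 for glia (SD 0.91, 9 fragments). It lay above 99.9% of brain bins, 99.8% of fat body bins and 99.8% of glial bins. The bin from 20750001 was the lowest in each, with -4.48 for brain (5 fragments), -2.67 for fat body (9 fragments) and -3.20 for glia (9 fragments). The distance between the highest and the lowest bin of this interval was therefore over 8 log2 units in each profile.

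By bin means, brain and fat body lay farthest apart at the high edge of the cad domain, where they were scored at partly different fragments. From 20780001 brain still had 8.22 (SD 1.46, 8 fragments), fat body 4.52 (SD 0.96, 3 fragments) and glia 5.79 (SD 1.63, 10 fragments). The bin after it, which holds the edge, had 4.76 for brain (SD 5.29, 6 fragments), 0.48 for fat body (SD 3.31, 8 fragments) and 2.16 for glia (SD 4.23, 14 fragments). Its large SDs show high and low fragments side by side in each profile. High brain fragments, such as 8.9 from 20786107, had no fat body score, and low fat body fragments, such as -1.7 from 20789296, no brain score. Fragments scored in both had 7.1 for brain and 5.5 for fat body from 20785092, 0.5 and -0.9 from 20787193, and -4.1 and -1.8 from 20788604. The gap between the bin means is thus not one between the same fragments. The stretches ended within about 1 kb of each other, at 20787083 for brain, 20786090 for fat body and 20787165 for glia. In the next bin, from 20790001, brain had -0.98, fat body 0.84 and glia -0.30. In the gene table cad lies between dia, which encodes a formin, and Pomp, a proteasome assembly factor.

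Which profile was highest at cad depended on the scale. Centred, brain exceeded glia by 1.07 (SD 2.32, 65 fragments) and fat body by 0.88 (SD 2.44, 48 fragments), both less than the spread along the locus. Under quantile normalization brain minus glia was -0.31, and as deposited brain minus fat body was -0.45. Fat body minus glia was 0.15 (SD 1.16, 68 fragments), 0.84 as deposited and -0.47 under quantile normalization. Centred, it was -0.13 over the 48 fragments scored in all 3 profiles, so the fragments kept mattered here too.

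The intervals also differed in how closely the profiles ran together along the chromosome, given here as Pearson's r over fragments scored in both profiles, which are not independent and share their GATC context. At cad, r was 0.90 between brain and fat body, 0.91 between brain and glia, and 0.94 between the other two. At tll it was 0.20, 0.09 and 0.54 in the same order of pairs, and at kni and knrl 0.36, 0.69 and 0.35. At hb it was 0.65, 0.69 and 0.77, although the levels of brain and the others lay far apart there. At gt it was 0.67, 0.61 and 0.69. Over all fragments of the genome it was 0.52, 0.67 and 0.67. The size of r also depends on the range of scores within the fixed borders. Brain bin means ran from -4.48 to 8.62 at cad and from 0.12 to 4.57 at tll. The part of this range in r was not tested.

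Sorting the 52 bins measured in all 3 profiles by where they were enriched sets the loci side by side. Brain alone was over 2 in 5 of 6 hb bins, 4 of 5 gt bins and 5 of 10 tll bins, against 5.33% of 17210 bins of the genome. Brain and glia without fat body was the class of 9 of 21 kni and knrl bins and 1 of 10 cad bins (genome 2.96%), and glia alone that of 6 of 21 kni and knrl bins and 2 of 10 tll bins (genome 1.89%). Some classed bins hold the edge of a brain stretch, such as those from 4500001 at hb, 2335001 at gt and 20785001 at cad. Their means mix fragments from both sides of the edge, and the cad bin of the brain and glia class is such a bin. All 3 profiles were over 2 in 5 of 10 cad bins and in none of the other 42 (genome 5.78%). Fat body was over 2 in 5 of 52 bins in all (genome 13.2%), the same cad bins, and 15 of 52 were enriched in none (genome 76.6%).

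Over the 5 intervals, 34 of 52 bins were over 1 higher in brain than in fat body (genome 20.4%) and 6 were over 1 lower (genome 40.9%). As deposited the counts were 22 and 15, against 10.3% and 69.6% of the genome. Between brain and glia, 26 of 59 bins were over 1 higher in brain (genome 24.2%) and 16 over 1 lower (genome 30.4%), of which 13 were at kni and knrl. As deposited these counts were 22 and 23, against 14.9% and 45.8% of the genome, and under quantile normalization 13 and 18 of 52 bins. Between fat body and glia, 2 of 54 bins were over 1 higher in fat body (genome 30.2%) and 25 over 1 lower (genome 13.0%), of which 19 were at kni and knrl. As deposited these counts were 10 and 16, against 54.3% and 6.1% of the genome.

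**Figure D4:**
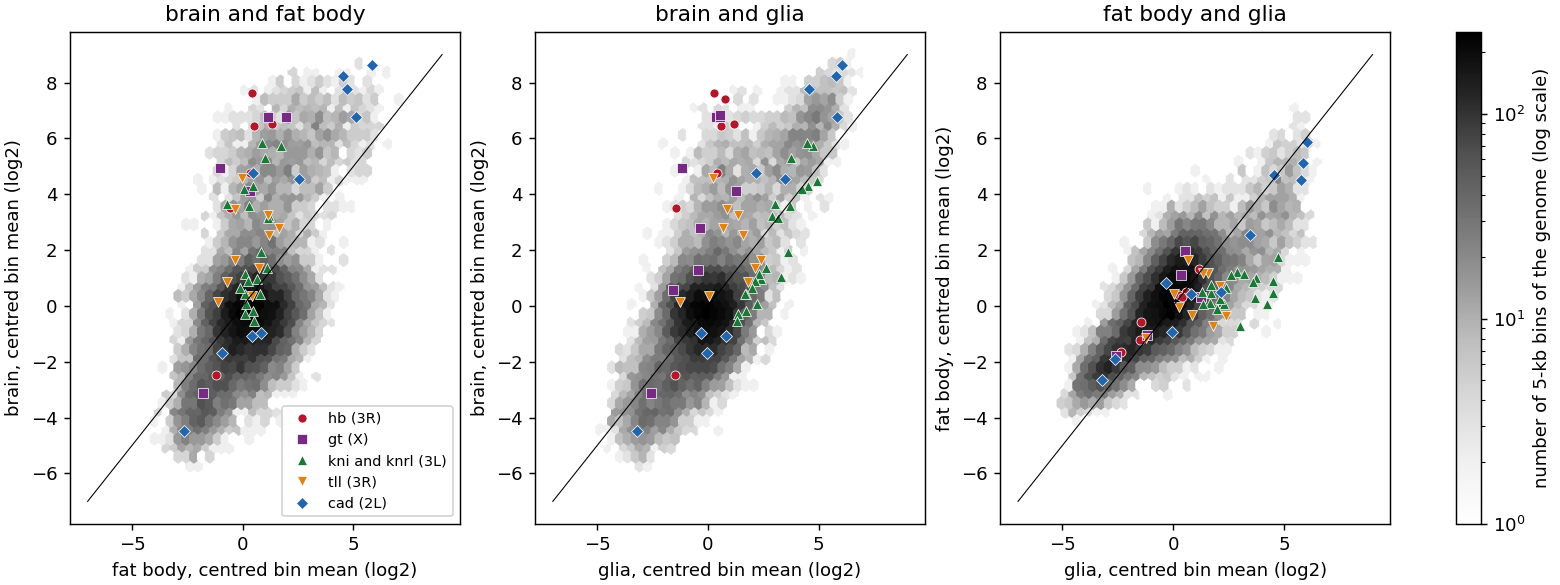
Centred means of 5-kb bins (log2) in 2 profiles at a time, brain against fat body, brain against glia and fat body against glia, with the bins of the genome as grey hexagons (darker for more bins, log scale), the bins of the 5 intervals as coloured symbols and the line of equal values. The hb and gt bins rise along the brain axis with fat body and glia under 2. The kni and knrl bins lie toward glia where fat body is set against it, and the highest cad bins sit at the upper end in each panel.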

How the data were processed

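The deposited table gives 1 score per GATC fragment for each of 3 profiles, normalized to Dam and averaged by the authors, per the file headers. The submitters' processing notes name cutadapt, Bowtie2, HTSeq and the build dm3. No source used here says why a fragment has no score. That the deposited scores are on a log2 scale was read from the values: at steps of 0.5 log2 of small whole-number ratios around the most frequent score lay 1765 brain, 3832 fat body and 4195 glial fragments (tolerance 0.0011), against at most 457 at the same steps of other bases. The intervals, and the named bins and fragments (highest, lowest and largest differences per interval), were chosen with earlier results of these data known. Medians for centring are over all scored fragments, and bins and stretches were called on 2L, 2R, 3L, 3R, 4 and X. The callers were tested on simulated scores. In those for the stretches, enriched fragments were set higher than the mean of most fat body and glial stretches, so weak stretches were not covered. Other genes of the segmentation pathway were not analysed here, because no dm3 gene positions were at hand, nor were promoter or protein sequences. Alternatives were other centrings, summaries, fragment sets, thresholds and hidden Markov models. Tools were Python 3.11.15, numpy 2.4.6, pandas 2.3.3, scipy 1.17.1, numba 0.67.0 and matplotlib 3.10.9.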

Additional observations from a re-analysis of the deposited data

How the results depend on the processing

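None of the 15 mean scores per interval and profile moved by more than 1 SD over its fragments under the 6 alternatives. This SD is the spread of single fragments, a wide limit and not an error of the mean. Within it, brain went from 5.31 to 3.50 at hb and from 4.57 to 2.47 at cad under quantile normalization. As deposited, brain at kni and knrl went from 2.31 to 1.07. Of the 15 mean differences, 5 changed sign. That of cad between brain and glia, 1.07, was -0.31 under quantile normalization and -6.23 percentile points with ranks. The other 4 were under 1 to begin with: brain minus fat body at cad was -0.45 as deposited and -5.20 percentile points with ranks, fat body minus glia at cad was -0.47 under quantile normalization and -0.13 with fragments scored in all 3 profiles, that at hb was -0.20 under quantile normalization, and that at tll was 0.17 as deposited. Bins over 1 apart were 22 for brain above fat body as deposited. For brain below fat body they were 15 as deposited and 2 under quantile normalization, and for brain above glia 13 under quantile normalization. For fat body above glia they were 10 as deposited, 4 under quantile normalization, 5 with fragments of 200 to 2000 bp and 6 with fragments scored in all 3 profiles, and for fat body below glia 16 as deposited. Enriched fat body bins numbered 8 at a threshold of 1.5 and 3 with at least 5 fragments per bin, and enriched glial bins 16 at a threshold of 3. Every interval kept a brain stretch under the 5 alternatives. Intervals with a fat body stretch numbered 1 with a running median of 9 and 1 at a threshold of 3, but 5 with the 2-state and 4 with the 3-state hidden Markov model, and those with a glial stretch 5 with the 2-state model, whose upper state held 56.2% of the fat body and 57.4% of the glial scores. The share of an interval's scored fragments that lay in a stretch moved beyond its binomial interval in 24 recomputed values and not in 51. That binomial interval treats neighbouring fragments as independent, while stretches are runs of neighbours. It served as a cut-off for a change and does not measure error. Causes of these changes were not tested, and the read depth behind each score is unknown. No paired analysis was possible because the deposited columns are means over replicates.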

Other observations

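Some of the 50-kb flanks of the intervals also scored high. Above tll, from 26700001 to 26750000 on 3R, the mean centred score was 5.07 in brain (SD 3.34, 85 fragments), 2.08 in fat body (SD 3.12, 66 fragments) and 3.14 in glia (SD 3.01, 112 fragments), each higher than at tll itself. Below gt, from 2250001 to 2300000 on X, fat body was the high profile, with -0.32 in brain (SD 2.18, 41 fragments), 2.07 in fat body (SD 1.41, 46 fragments) and -0.42 in glia (SD 1.14, 89 fragments). There 46 of the 235 fragments had a fat body score. Below kni and knrl, from 20550001 to 20600000 on 3L, brain averaged 1.54 (SD 1.23, 58 fragments), fat body 0.72 (SD 1.14, 48 fragments) and glia 2.06 (SD 0.94, 108 fragments). Both sides of hb averaged below 0 in the 3 profiles, and above cad, from 20800001 to 20850000 on 2L, the means were -0.02 for brain, 0.43 for fat body and 0.59 for glia.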
